A study of Homo sapiens with 13 samples.

Results

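The cells described here are human breast tumour cells, grown in mice, in which FAM133A was counted at least once. They were set against cells of the same tumour without a FAM133A count. Of 1569 deposited cells, 1482 had at least 2000 detected genes, and 812 of these (54.8%) were FAM133A-positive and 670 were FAM133A-negative. The cells were thus chosen by their FAM133A counts, so every statement on FAM133A itself in them is a description with no test.

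All tumours came from BM1 cells, a line derived from MDA-MB-231 human breast cancer cells that tends to spread to bone, and each athymic nude mouse received 1000000 cells in the mammary fat pad. The study's title concerns differences in expression between cells and regulators of metastasis. In 3 single-cell experiments, 1 tumour of cells carrying the RKIP construct and 1 vector control (CTRL) tumour were taken 3 weeks after injection, dissociated, depleted of mouse and dead cells, and sequenced on the Fluidigm C1 HT system. In bulk, 5 tumours of cells overexpressing KMT5C, a histone H4 lysine 20 methyltransferase, and 5 CTRL tumours were taken after 4 weeks. The RKIP construct is the S153E form of RKIP, an inhibitor of the RAF-MEK-ERK cascade encoded by PEBP1, and is listed in the table as the rat transgene ratpebp1. The stable RKIP and CTRL cells were made from the same parent, and the labels do not say whether either is 1 clone, so cell stock and construct cannot be told apart. Athymic mice lack mature T cells. RKIP and CTRL tumours of an experiment are numbered here by the ending of the cell names.

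FAM133A is an X-linked gene that is grouped with the cancer-testis genes, which are used mainly in the germ line and are switched on in part of many tumours. Its autosomal relative FAM133B is expressed in many tissues, and the function of neither protein is well established. The SPANX and MAGE families are other X-linked cancer-testis genes, and several of their members are near-copies of each other.

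How far reads of such relatives can be told apart bears on each value given here. The stretch that begins at coding base 31 of FAM133A (chromosome X) is the one most like the start of the FAM133B coding sequence (chromosome 7), and both are shown from GENCODE 29 with capitals at the bases that differ between them.
FAM133A: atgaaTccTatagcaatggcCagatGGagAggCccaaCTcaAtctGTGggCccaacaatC
FAM133B: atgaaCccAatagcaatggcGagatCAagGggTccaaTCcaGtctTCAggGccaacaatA
Of these 60 bases, 45 were identical, and over the whole coding sequences, 744 and 711 bases long, the identity was 79.4%. None of the 3243 windows of 50 bases in the FAM133A transcript occurred in a transcript of any other gene of that annotation. Of the 2385 windows of FAM133B, 25% did, among them in its pseudogenes FAM133CP and FAM133DP, so its counts are less certain. The first 60 coding bases of SPANXB1, SPANXC and SPANXD, all on chromosome X, are shown with capitals at the 7 positions where they are not all the same.
SPANXB1: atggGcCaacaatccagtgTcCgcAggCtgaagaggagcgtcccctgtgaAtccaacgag
SPANXC: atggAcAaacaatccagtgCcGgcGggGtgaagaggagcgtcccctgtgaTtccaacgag
SPANXD: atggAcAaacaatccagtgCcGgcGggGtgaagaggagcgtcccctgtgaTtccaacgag
SPANXB1 differed from the other two at all 7 positions. In windows of 50 bases, 21.7% of the SPANXB1 transcript, 84.9% of SPANXC and 71.6% of SPANXD also occurred in another gene. Values of SPANXC and SPANXD are therefore uncertain, and those of SPANXB1 less so.

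FAM133A-positive cells made up a larger part of the RKIP tumours than of the CTRL tumours. Of 245, 273 and 241 cells in RKIP tumours 1, 2 and 3, 75.9%, 71.1% and 65.6% were FAM133A-positive. In CTRL tumours 1, 2 and 3, with 221, 263 and 239 cells, the shares were 46.2%, 34.2% and 34.3%. Every RKIP tumour lay above every CTRL tumour, and the exact (Clopper-Pearson) 95% intervals, which cover counting error only, ran from 59.2% at the lowest in the RKIP arm and to 52.97% at the highest in the CTRL arm. The mean share was 70.8% ± 5.18 in RKIP tumours and 38.2% ± 6.86 in CTRL tumours (SD, n = 3 each), a difference of 32.6 points. That difference was positive in 3 of 3 experiments, and no source used here states the pairing by name ending.

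**Figure D1:**
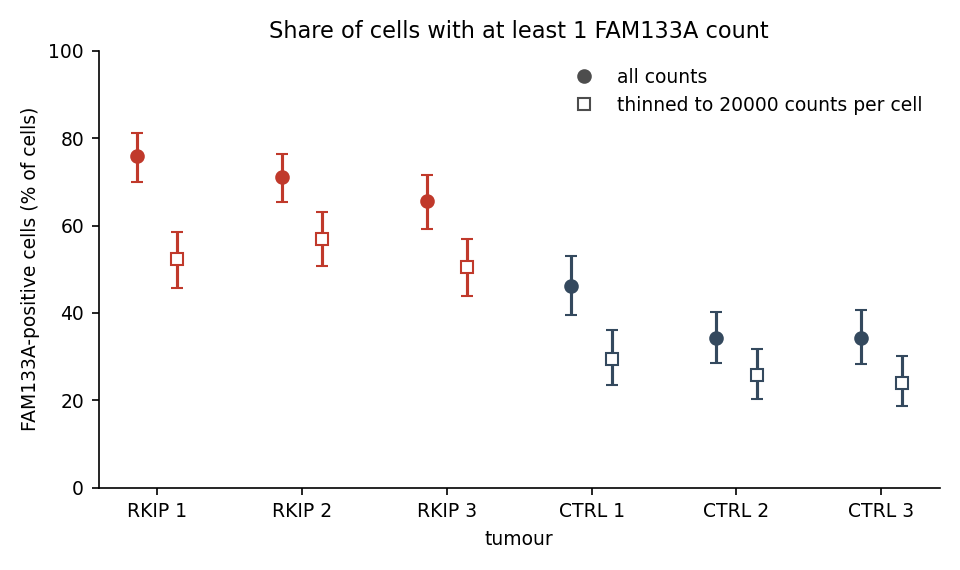
Share of cells with at least 1 FAM133A count in each tumour (percent of cells, with exact 95% intervals), in RKIP tumours (red) and CTRL tumours (blue), with all counts (filled) and after every cell was thinned to 20000 counts (open). The 3 RKIP tumours lie above the 3 CTRL tumours at either depth.

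The shares were lower at a common depth. After each cell was thinned to 20000 counts, which left out 51 shallower cells, the positive shares were 52.2%, 57.0% and 50.4% in the RKIP tumours, against 29.5%, 25.7% and 24.0% in the CTRL tumours. The arms did not overlap at this depth either. With at least 5 counts required, 44.5%, 43.2% and 46.5% of RKIP cells and 16.7%, 16.7% and 20.1% of CTRL cells qualified. The RKIP cells filled 10 columns of each chip and the CTRL cells the other 10, so chip column and construct cannot be told apart. With the 3 tumours of an arm pooled, the share by column ran from 66.2% to 77.5% in RKIP columns and from 33.8% to 45.3% in CTRL columns. Within single tumours, where a column held 14 to 29 cells, it ran from 50% to 100%, 55.6% to 82.1% and 39.3% to 79.2% in RKIP tumours 1, 2 and 3, and from 16% to 61.9%, 19.2% to 42.9% and 17.4% to 48.1% in CTRL tumours 1, 2 and 3. Single columns of the arms thus overlapped. Before thinning, 22, 122 and 149 cells of RKIP tumours 1, 2 and 3 had a transgene count. After thinning 9, 81 and 95 cells had one, and 66.7%, 54.3% and 52.6% of these were FAM133A-positive. Of the 236, 175 and 141 cells without one, 51.7%, 58.3% and 48.9% were FAM133A-positive. With so few cells in RKIP tumour 1, the exact 95% interval of its 66.7% ran from 29.9% to 92.5%.

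Most of the FAM133A counts came from few cells. The median FAM133A-positive cell had 10, 8 and 12 FAM133A counts in RKIP tumours 1, 2 and 3, and 2.5, 4 and 6.5 in CTRL tumours 1, 2 and 3. The tenth of cells with the most FAM133A counts held 72.4%, 57.1% and 56.4% of them in RKIP tumours 1, 2 and 3, against 77.5%, 84.1% and 83.9% in CTRL tumours 1, 2 and 3. The highest single cell had 850 counts and belonged to RKIP tumour 1. At the threshold, 186 cells had exactly 1 count and counted as positive, and the 670 cells at 0 counted as negative. Counts of this table skip values: in experiment 3, no cell had exactly 2 or 8 FAM133A counts, although 48 had 1 and 19 had 3. In experiment 1, 64.9% of the 1649 genes with at least 15 cells at 1 and at 3 had no cell at 2, against 0.345% in experiment 2 and 2.46% in experiment 3. The values may thus not be plain read counts, and counts of calls are also given without experiment 1.

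Summed over all cells of a tumour, FAM133A stood at 210, 160 and 145 counts per 1000000 counts (CPM) in the RKIP tumours, and at 44.1, 59.9 and 63.7 CPM in the CTRL tumours, by unscaled totals. No CTRL tumour reached the lowest RKIP tumour. The log2 fold change, RKIP over CTRL, was 1.64 (SE 0.23) in edgeR and also 1.64 in DESeq2, and without experiment 1 edgeR gave 1.34. Of 14527 genes in that comparison, edgeR's quasi-likelihood test called 1 (0.00688%), the transgene ratpebp1, with 584 (4.02%) at an unadjusted p under 0.05. DESeq2 called 60 (0.413%). FAM133A was not called by edgeR (adjusted p = 0.975) and was among the 60 of DESeq2 (adjusted p = 2.32e-09). As FAM133A was chosen with earlier results of these data known, these p-values are a description. Among FAM133A-positive cells alone, the level was 257, 208 and 199 CPM in RKIP tumours and 91.3, 162 and 162 CPM in CTRL tumours. In bulk, FAM133A stood at 6.76, 4.76, 5.64, 7.85 and 4.69 CPM in the 5 KMT5C tumours and at 12.8, 9.43, 11.8, 8.12 and 12.8 CPM in the 5 CTRL tumours, with no overlap. FAM133A fell in KMT5C tumours, with a log2 fold change of -0.88 (SE 0.16, edgeR adjusted p = 0.00593), one of 531 genes called of 17947 (2.96%). Fewer FAM133A-expressing cells and less FAM133A per cell cannot be told apart in bulk.

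FAM133A-positive cells had more counts in all than FAM133A-negative cells of the same tumour. Median total counts per cell were 112034, 70072 and 85561 in positive cells of RKIP tumours 1, 2 and 3, against 84724, 41547 and 56881 in negative cells. In CTRL tumours 1, 2 and 3 they were 106406, 68285 and 91836 in positive cells, against 103543, 52454 and 70060 in negative cells. The log2 ratio averaged 0.43 ± 0.24 (SD, n = 6) and was positive in 6 of 6 tumours, with p = 0.031 in the exact sign-flip test, the smallest p that 6 tumours allow. A deeper cell has more chances to show a count of any gene. When positive cells were instead called after thinning to 20000 counts, an alternative chosen after the data had been seen, the log2 ratio of their median total counts before thinning was -0.03, positive in 2 of 6 tumours (exact p = 0.719). The cells of each tumour were split into 4 bins of equal size by total counts. The positive share in the RKIP tumours was 72.6%, 60.9% and 45.9% in the lowest bin and 85.2%, 86.8% and 78.3% in the highest. In CTRL tumours it was 41.1%, 21.2% and 33.3% in the lowest and 54.5%, 37.9% and 45% in the highest. After thinning, the highest bin lay above the lowest in 4 of 6 tumours.

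**Figure D2:**
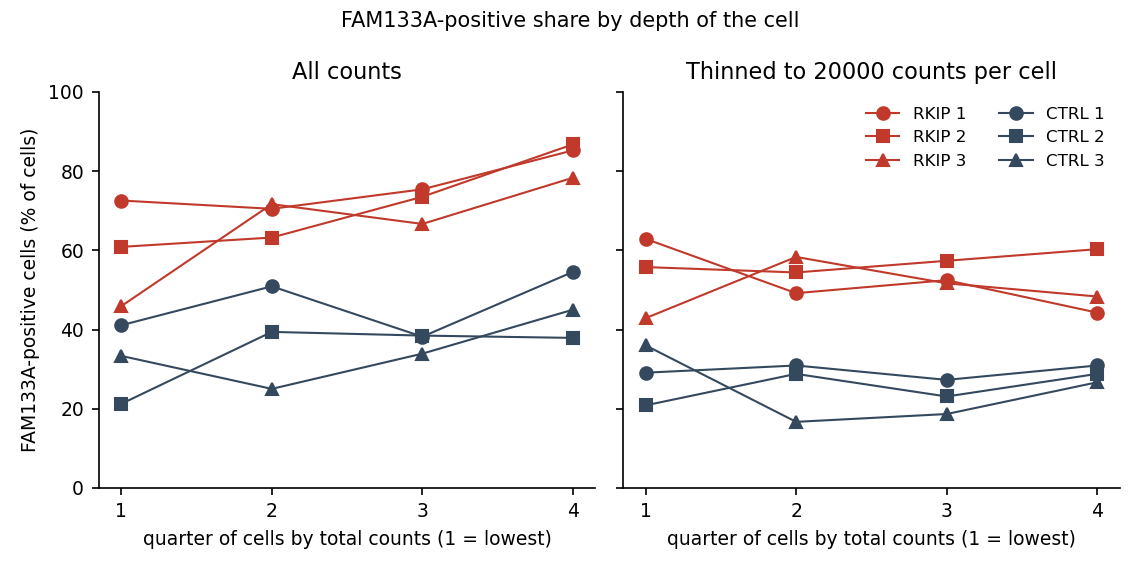
FAM133A-positive cells (percent of cells) in 4 bins of total counts per cell within each tumour, with all counts (left) and after thinning to 20000 counts (right); RKIP tumours are red and CTRL tumours blue. With all counts the highest bin lies above the lowest in all 6 tumours, and after thinning in 4 of 6.

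FAM133A-positive cells also held more different genes at equal depth. At 20000 counts per cell, FAM133A left aside, the median number of detected genes was 2351.5, 3172 and 3489 in positive cells of RKIP tumours 1, 2 and 3, against 2231, 2972 and 3081 in negative cells. In CTRL tumours 1, 2 and 3 it was 2315, 3207 and 3376 in positive cells, against 2066, 3160 and 3301 in negative cells. Positive cells were above negative cells in 6 of 6 tumours, by 183 genes on average (SD 134, exact sign-flip p = 0.031). The difference was 139 genes, in 5 of 6 tumours, when positive cells were called after thinning (exact p = 0.0625), and 122.9 genes among cells with at least 3000 detected genes (exact p = 0.0625). Except where called after thinning, status came from the full counts and so went with depth. Whether cells chosen by a count of another gene of like level differ in the same way was not tested.

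No gene passed edgeR's test between FAM133A-positive and FAM133A-negative cells. Counts were summed over the cells of each status in each tumour and compared within tumours. Of 13388 genes tested by edgeR's quasi-likelihood test, 0 (0%) had an adjusted p under 0.05, and 573 (4.28%) had an unadjusted p under 0.05, with 304 (2.27%) higher and 269 (2.01%) lower. DESeq2 on the same sums called 25 (0.187%), of which 14 were higher and 11 lower. The 95% interval of a gene's log2 fold change had a median width of 0.17 to either side for the 300 genes above a mean log2 CPM of 9. For the 3279 genes between 5 and 7 that width was 0.52, and for the 4399 genes under 3 it was 1.88. These intervals are not adjusted for the number of genes tested, so they are narrower than what the adjusted test needs for a call. No gene met the rule for naming genes, so the genes below are those set for description in every case or, where said, chosen after their values were seen.

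**Figure D3:**
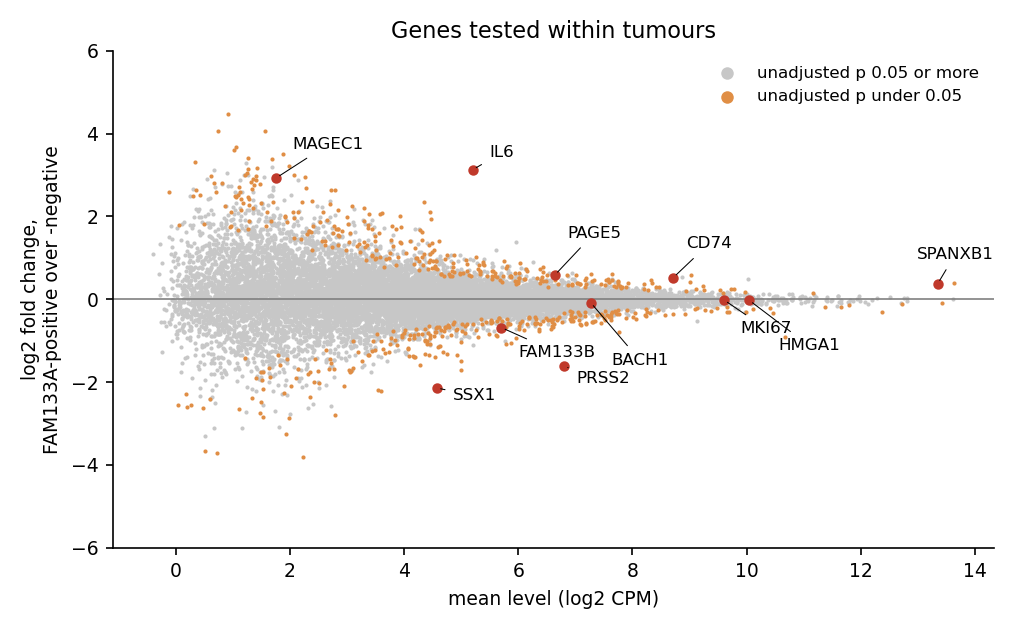
Log2 fold change between FAM133A-positive and FAM133A-negative cells against the mean level (log2 CPM) of each of 13388 genes, from sums within 6 tumours. Genes with an unadjusted p under 0.05 are orange, and the genes labelled by name are red. No gene passed the adjusted threshold in edgeR, and the spread of fold changes narrows as the level rises.

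SPANXB1, a cancer-testis gene and one of the most abundant RNAs of these cells, had the smallest p of all genes and was chosen for description after its values were seen. It stood at 9623, 12648 and 14300 CPM in FAM133A-positive cells of RKIP tumours 1, 2 and 3, against 8503, 8676 and 9658 CPM in FAM133A-negative cells. In CTRL tumours 1, 2 and 3 it stood at 10589, 10495 and 13076 CPM in positive cells, against 8073, 9334 and 10090.5 CPM in negative cells. Positive cells were above negative cells in all 6 tumours, while the ranges over tumours overlapped. The log2 fold change was 0.37 (SE 0.06), with an unadjusted p of 8.23e-05 and an edgeR adjusted p of 0.999. Among cells paired on total counts, 473 pairs in all, it was 0.39 (edgeR adjusted p = 0.295). With positive cells called after thinning, SPANXB1 was 1 of 2 genes called of 10209 (0.0196%), at 0.38 (edgeR adjusted p = 0.0209). The other was PRSS2, a trypsinogen, at -1.36 (edgeR adjusted p = 0.0372). In the sums by full counts PRSS2 was lower in positive cells of all 6 tumours, at -1.62 (edgeR adjusted p = 0.999). DESeq2 on those sums called it, at -1.63 (adjusted p = 3.23e-04). By mean log2 values it differed by -0.50 (limma adjusted p = 0.194).

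A different analysis called more genes. Each cell was thinned and counted equally, as the mean over cells of log2(CPM + 1), with another filter on low values, and limma then called 34 of 8259 genes (0.412%), all of them higher in FAM133A-positive cells. The median gene was then higher by 0.11, beside the larger number of detected genes in positive cells. This alternative was added after the data had been seen, and which of these changes moved the count from 0 was not tested. Limma's p-values draw on a variance pooled over genes as well as on a gene's own spread over the tumours. SPANXB1 led the list with a difference of 0.67 (SE 0.08, limma adjusted p = 4.56e-12). After it came CD74, the chaperone of MHC class II molecules, at 1.19 (limma adjusted p = 3.5e-04), and PAGE5 and SPANXC, other cancer-testis genes, at 1.14 and 0.89 (limma adjusted p = 0.00128 for both). SPANXD, ATOX1, a copper chaperone, and PGK1, a glycolytic enzyme, were also among the 34. Of the 34, 9 were on chromosome X, where limma tested 263 genes, so 3.42% of X-linked genes were called against 0.412% of all genes. The 9 include SPANXB1, SPANXC and SPANXD, which share stretches of sequence and were counted as separate genes. None of the 34 was among the 25 called by DESeq2 on the sums. In edgeR on the sums, 33 of the 34 had a log2 fold change above 0 and 10 had an unadjusted p under 0.05. The sums hold largely the same cells, so these counts are a description and not a separate test. The count was 12 without RKIP tumour 2, 2 without RKIP tumour 3 and 62 without CTRL tumour 2, and 24 without experiment 1, of which 13 were shared. Without experiment 1, CD74 stood at 0.80 (limma adjusted p = 0.139) and ATOX1 at 0.56 (limma adjusted p = 0.0973) and neither was called, while SPANXB1, PAGE5, SPANXC, SPANXD and PGK1 were.

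Among cells paired within tumours on detected genes, 450 pairs in all, SPANXB1 was the 1 gene called of 8227 (0.0122%), with a difference of 0.60 (SE 0.08, limma adjusted p = 4.42e-08). The median gene then differed by -0.00099. The 34 genes stayed above 0 in that comparison, with a median difference of 0.64, against 0.88 before pairing, and 30 of them had an unadjusted p under 0.05. The pairs were drawn from the cells that had given the 34 genes. These values are thus a description and not a separate test. CD74 stood at 0.75 (limma adjusted p = 0.799) and SPANXC at 0.78 (limma adjusted p = 0.087). The pairing kept fewer cells, and how much of the drop in calls comes from that was not tested.

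**Figure D4:**
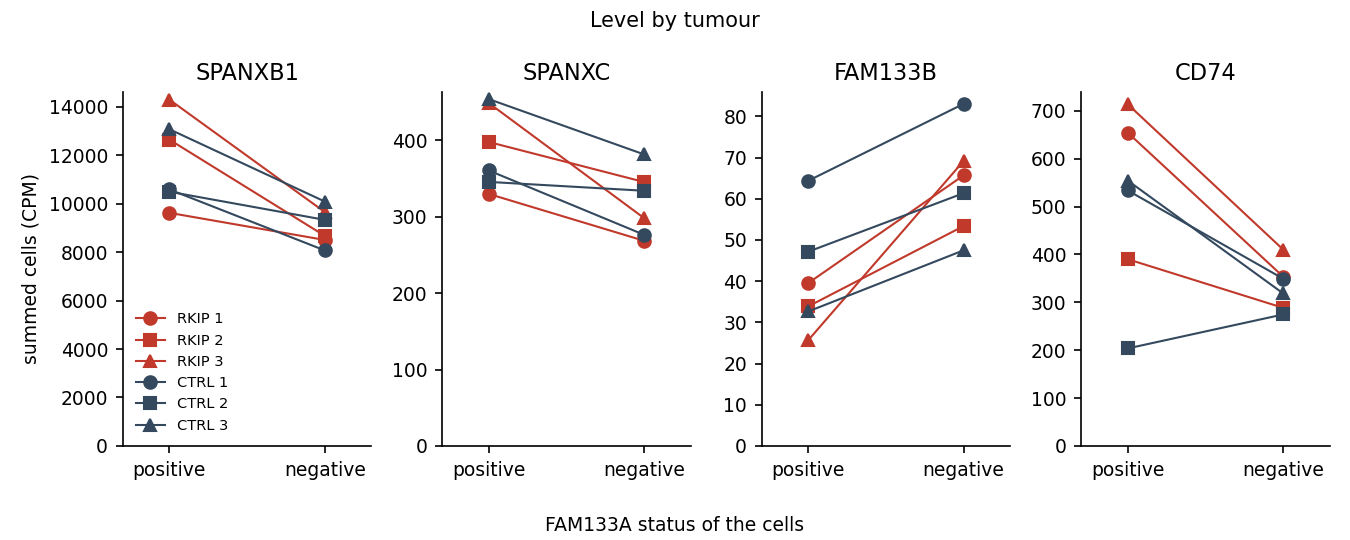
Level (CPM of summed cells) of SPANXB1, SPANXC, FAM133B and CD74 in FAM133A-positive cells (left point) and FAM133A-negative cells (right point) of each tumour, joined by a line; RKIP tumours are red and CTRL tumours blue. SPANXB1 and SPANXC are higher and FAM133B is lower in positive cells of all 6 tumours, and CD74 is higher in 5 of 6.

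Among FAM133A's relatives and the other cancer-testis genes, values differed in both directions. FAM133B stood at 39.5, 33.9 and 25.7 CPM in FAM133A-positive cells of RKIP tumours 1, 2 and 3, against 65.7, 53.4 and 69.2 CPM in negative cells. In CTRL tumours 1, 2 and 3 it stood at 64.4, 47.1 and 32.6 CPM in positive cells, against 83.0, 61.4 and 47.5 CPM in negative cells. Positive cells were lower in all 6 tumours, with a log2 fold change of -0.68 (SE 0.20, unadjusted p = 0.00705, edgeR adjusted p = 0.999). SSX1, a transcriptional repressor of the cancer-testis group, was lower in the sums of positive cells of all 6 tumours at -2.14 (edgeR adjusted p = 0.999) and was called by DESeq2 (adjusted p = 0.00151). By mean log2 values SSX1 differed by -0.24 (limma adjusted p = 0.396) and was higher in positive cells of RKIP tumour 1 and CTRL tumour 1. MAGEC1 had 2.10, 4.27 and 2.59 CPM in positive cells of RKIP tumours, against 0, 1.79 and 0.391 CPM in negative cells, and 3.13, 15 and 5.01 CPM in positive cells of CTRL tumours, against 0, 1.76 and 2.85 CPM in negative cells (edgeR adjusted p = 0.999). Of 18 other cancer-testis genes tested, of 50 listed, edgeR called 0 and DESeq2 1 (SSX1). Limma on mean log2 values tested 12 of the 18 and called 4 (SPANXB1, PAGE5, SPANXC and SPANXD), beside 0.412% of all genes it tested. Much of SPANXC and SPANXD also occurs in other SPANX genes, so their calls may not be separate results. By edgeR's unadjusted p under 0.05, 4 of the 18 were higher (SPANXB1, PAGE5, SPANXC and NUF2, a kinetochore gene), and 1, SSX1, was lower, beside 2.27% higher and 2.01% lower over all genes. The median log2 fold change of the 18 was 0.21, against 0.03 over all genes tested, and the list was drawn up with earlier results of these data known. That median was 0.072 without RKIP tumour 2, 0.121 without CTRL tumour 1 and 0.357 without RKIP tumour 1, in which alone it was -0.32. Of 10 MAGE genes tested, edgeR, DESeq2 and limma called 0 and 8 (80%) were above 0, against 53.5% of all genes, with a median of 0.42. The MAGE median was below 0 in RKIP tumours 1 and 2 and CTRL tumour 3, at -0.14, -0.12 and -0.03, and above 0 in the other 3. It was 0.111 without CTRL tumour 2, 0.178 without RKIP tumour 3 and 0.188 without CTRL tumour 1, and was 0.681 without RKIP tumour 1 and 0.747 without CTRL tumour 3. For the 4 MAGE genes measured by mean log2 values in cells paired on detected genes it was 0.057.

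Genes of chromosome X were examined after the values had been seen, so they are described with no test. By mean log2 values, the median of 263 X-linked genes was 0.19, against 0.11 for genes of other chromosomes, and it was the highest of 23 chromosomes. Among cells paired on detected genes it was 0.08, again the highest, with the 22 autosomes between -0.02 and 0.03. In the paired cells the X-linked median lay above that of other chromosomes in 5 of 6 tumours, by 0.07, 0.15 and 0.16 in RKIP tumours 1, 2 and 3 and by 0.07, 0.03 and -0.01 in CTRL tumours 1, 2 and 3. In the summed counts of genes at or above a mean log2 CPM of 5, X ranked number 4, after chromosomes 21, 9 and 4, with a median of 0.06 for 158 genes. A total of 10.1% of those 158 genes had an unadjusted p under 0.05, against 5.44% of all 4746. They included MSN, which encodes the membrane-cytoskeleton linker moesin, at 0.26 in 6 of 6 tumours, but also SH3KBP1, an adaptor in receptor endocytosis, at -0.40 in 0 of 6 (edgeR adjusted p = 0.999 for both). By mean log2 values MSN differed by 0.49 and SH3KBP1 by 0.0086.

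**Figure D5:**
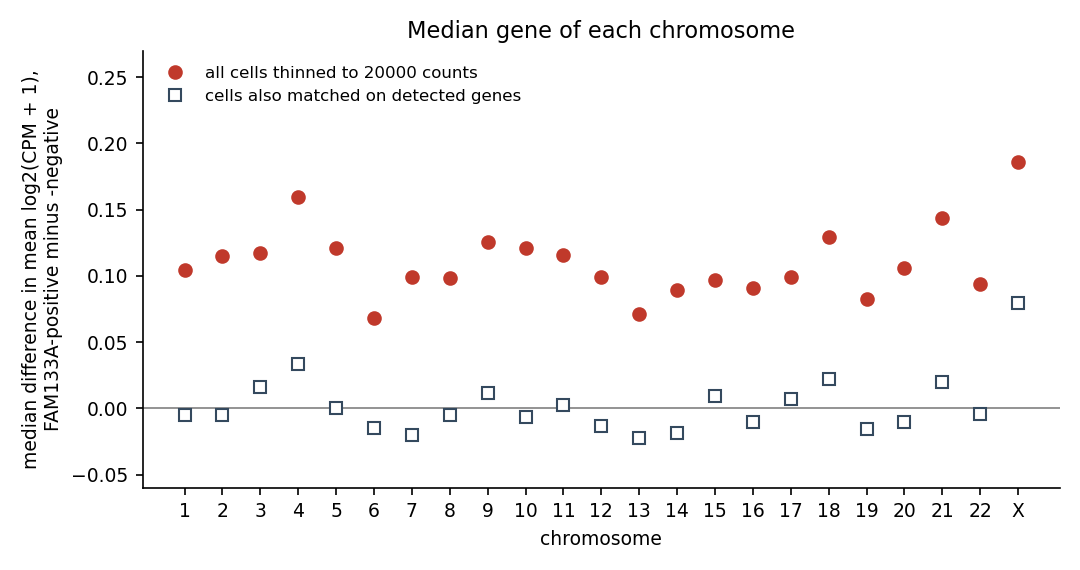
Median difference in mean log2(CPM + 1), FAM133A-positive minus FAM133A-negative cells, of the genes of each chromosome, with all cells thinned to 20000 counts (red circles) and with cells also paired on detected genes (open squares). Chromosome X has the highest median in either set, at 0.19 and 0.08.

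Genes near FAM133A were examined as well. Of 47 X-linked genes tested from a list spanning bands on the long arm around FAM133A, edgeR and DESeq2 called 0. Limma on mean log2 values tested 36 of the 47 and called 3 (PBDC1, PGK1 and COX7B). It called 3.42% of all X-linked genes it tested and 0.412% of all genes. By edgeR, 33 of the 47 (70.2%) were above 0 with a median of 0.21, against 60.3% of all 441 X-linked genes tested and 53.5% of all genes. The 4 with an unadjusted edgeR p under 0.05 (8.51%, against 4.28% of all genes), TCEAL3, TCEAL9, BEX3 and PBDC1, were all higher in FAM133A-positive cells. The nearest tested gene, NAP1L3, a nucleosome assembly protein gene, stood at 6.81, 12.6 and 7 CPM in positive cells of RKIP tumours 1, 2 and 3, against 5.86, 2.02 and 5.86 CPM in negative cells. In CTRL tumours 1, 2 and 3 it stood at 7.14, 3.89 and 17.6 CPM in positive cells, against 6.63, 1.28 and 4.06 CPM in negative cells. It was higher in 6 of 6 tumours at 1.13 (SE 0.55, edgeR adjusted p = 0.999), at a low mean log2 CPM of 2.79. By mean log2 values, NAP1L3 was lower in positive cells of RKIP tumours 1 and 3, at 0.33 against 0.39 and 0.36 against 0.45. DIAPH2, a formin gene on the other side, was at 0.20 and higher in 4 of 6 tumours (SE 0.20, edgeR adjusted p = 0.999). Other near genes went in both directions. KLHL4 was at -0.38 and higher in 1 of 6 tumours, and TSPAN6 at -0.29 and higher in 2 of 6. SRPX2 and SYTL4 were at 0.52 and 0.27, each higher in 4 of 6 (edgeR adjusted p = 0.999 for all 4).

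Genes of the pathways the study concerns did not pass edgeR's test either. CD74 stood at 654, 390 and 714 CPM in FAM133A-positive cells of RKIP tumours 1, 2 and 3, against 354, 288 and 410 CPM in negative cells, and at 534, 204 and 554 CPM in positive cells of CTRL tumours 1, 2 and 3, against 349, 275 and 319 CPM in negative cells. It was higher in 5 of 6 tumours, at 0.52 (SE 0.16, edgeR adjusted p = 0.999). PEBP1 averaged 285 ± 23.5 CPM in positive cells and 310 ± 60.6 CPM in negative cells (SD, n = 6). The log2 fold change of BACH1, a transcription factor linked to metastasis in this line, was -0.08 (SE 0.17), and those of the chromatin proteins HMGA1 and HMGA2 were -0.02 (SE 0.09) and -0.18 (SE 0.23). KMT5C was at most 3.91 CPM in any group of cells. The transgene ratpebp1 stood at 9.42, 241 and 112 CPM in positive cells of RKIP tumours 1, 2 and 3, against 23.4, 69.7 and 155 CPM in negative cells, so its order changed between tumours. All of these had edgeR adjusted p-values of 0.999.

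No gene of the cell cycle and stress lists was called by edgeR. MKI67, a marker of cycling cells, stood at 756, 858 and 719 CPM in positive cells of RKIP tumours, against 1367, 499 and 795 CPM in negative cells, and at 631, 931 and 619 CPM in positive cells of CTRL tumours, against 855, 853 and 459 CPM in negative cells. Positive cells were higher in 3 of 6 tumours. Of 40 genes of G2 and M phase, 30 (75%) were above 0, against 53.5% of all genes, with a median of 0.13. That median was 0.0067 without RKIP tumour 2, 0.210 without RKIP tumour 1 and 0.201 without RKIP tumour 3, and by tumour it ran from -0.35 in RKIP tumour 1 to 0.70 in RKIP tumour 2. Of 38 S phase genes, 22 (57.9%) were above 0 with a median of 0.06, which was -0.036 without RKIP tumour 2, -0.035 without RKIP tumour 3 and 0.123 without CTRL tumour 3. By mean log2 values in cells paired on detected genes the medians of the G2 and M and the S phase lists were -0.04 and -0.02. Over all genes, 2.27% were higher and 2.01% lower at an unadjusted edgeR p under 0.05. Of 36 hypoxia and glycolysis genes, 4 (11.1%) had such a p and all 4 were higher, led by ENO1, the glycolytic enolase, at 0.39 in 5 of 6 tumours (edgeR adjusted p = 0.999). PGK1, of the same list, was called by limma on mean log2 values. Of 33 immediate-early genes, 5 (15.2%) had an unadjusted p under 0.05, of which 4 were higher, among them MYC at 1.02 in 6 of 6 tumours, and JUN was lower at -0.27 in 6 of 6 (edgeR adjusted p = 0.999). MYC was near equal in RKIP tumour 2 (44.9 against 44.6 CPM) and CTRL tumour 2 (41.9 against 40.4 CPM). In RKIP tumour 1 it stood at 61.4 against 6.38 CPM. By mean log2 values MYC differed by 0.23 and was lower in positive cells of CTRL tumours 2 and 3, and JUN differed by 6.04e-04. Of 76 cytosolic ribosomal protein genes, 21 (27.6%) were above 0 with a median of -0.02, which was 0.0049 without RKIP tumour 1. Of 44 interferon-stimulated genes, 30 (68.2%) were above 0 with a median of 0.16, which was -0.057 without RKIP tumour 3 and 0.067 without RKIP tumour 1. Other lists had like shares at an unadjusted edgeR p under 0.05, against 4.28% of all genes. Of 24 ERK output and feedback genes, 3 were higher and 1 lower (16.7%). Of 15 EGF receptor family genes, 2 were higher and 1 lower (20%), and of 20 YAP and TAZ targets, 3 were higher and 0 lower (15%). No list had a gene called by edgeR. HSPA6, a heat shock gene outside the lists that was chosen after its values were seen, was called lower by DESeq2 at -1.73 (adjusted p = 0.0236).

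The difference between FAM133A-positive and FAM133A-negative cells was not shown to depend on the construct. Of 13388 genes, edgeR's interaction test called 0 (0%), with 508 at an unadjusted p under 0.05, and DESeq2 called 19. SPANXB1 differed by 0.44 (SE 0.09) within the RKIP tumours and by 0.31 (SE 0.06) within the CTRL tumours, and the difference between these was 0.12 (SE 0.12, edgeR unadjusted p = 0.333). PRSS2 differed by -2.30 (SE 0.25) in the RKIP tumours and by -0.88 (SE 0.36) in the CTRL tumours (edgeR unadjusted p of the difference = 0.0122, adjusted p = 0.999).

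Markers of the tumour line were present in both groups of cells. The 5 markers of MDA-MB-231 cells, VIM, CD44, KRT18, KRT8 and EGFR, were present in all 12 sums and together stood at 4839 to 6474 CPM in positive cells and at 5227 to 6244 CPM in negative cells. Of 20 markers of leukocytes, endothelium, fibroblasts, muscle and fat, 6 were in the table and together stood at 105 to 180 CPM in positive cells and at 98.0 to 170 CPM in negative cells, mostly LAPTM5. PTPRC, CD3E, LYZ and CD14 were not among the genes of the table. Host cells of these tumours would be mouse cells, which a table of human genes may not show. These markers therefore cannot say whether mouse cells remained.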

How the data were processed

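RNA of single cells and of bulk tumours was measured by sequencing. The authors deposited whole-number counts per gene and cell and per gene and bulk tumour. Reads were processed with Trim Galore, STAR and featureCounts, per the submitters' processing notes, which name the builds hg38 and hg19 without their roles, so no gene coordinates are given. Strand and molecular identifiers are not given in the sources used here. Counts per tumour lay between 19468467 and 33922206. The single-cell table listed 15005 genes, and 0 of its columns were left out. The values of experiment 1 have gaps, so they may not be plain counts, and they were tested as counts.

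Counts of FAM133A-positive and FAM133A-negative cells were summed per tumour and compared within tumours (tumour as a block) with edgeR 4.0.16 in R 4.3.3, after its filter on low counts and TMM scaling. P-values were two-sided and adjusted over all genes (Benjamini-Hochberg), and 0.05 on the adjusted p was the threshold. The RKIP and CTRL tumours were paired by experiment, because the labels describe 1 tumour of each per experiment. Alternatives used DESeq2 1.42.0, limma 3.58.1 on mean log2 values with a pseudocount of 1 CPM and a mean of at least 0.5, cells thinned without replacement, cells paired on total counts within 10% or on detected genes within 5%, and tumours left out. The tests were tested on simulated data. Tumours are replicates, but no source says that they came from separate cultures, so p-values measure the spread between these tumours.

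The rule named the 12 genes of largest change in each direction among those called at a mean log2 CPM of at least 5, with the same sign in at least 5 of 6 tumours and in cells paired on total counts. FAM133B, PEBP1, ratpebp1, BACH1, KMT5C, HMGA1, HMGA2, CD74, MAGEC1 and MKI67 were described in every case. The cells, lists and genes were chosen with earlier results of these data known. A bulk comparison of the genes called was not made, since edgeR, the main test, called none. Sequences were read from GENCODE 29 transcripts (GRCh38), and identity came from a global alignment.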

Additional observations from a re-analysis of the deposited data

Results flagged for a closer look

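The level of FAM133B in FAM133A-positive minus FAM133A-negative cells was -1.40 on the log2(CPM + 1) scale in RKIP tumour 3, apart from the other 5 tumours, which lay between -0.72 and -0.36. CD74 differed by -0.43 in CTRL tumour 2, apart from the other 5 tumours, which lay between 0.43 and 0.89. These were 2 of 17 sets of tumours checked for a single distant value, and chance alone gives about 1 such value in 20 sets.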

How the results depend on the processing

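No gene was called between FAM133A-positive and FAM133A-negative cells in edgeR, nor with any single tumour left out (0 genes each time), without the replicate block (0 genes), by upper-quartile scaling, without the filter on low counts, in either arm alone or in any subset of cells by depth. DESeq2 called 25 genes (14 higher, 11 lower). Among the alternatives chosen after seeing the data, calling positive cells after thinning gave 2 (1 higher, 1 lower), and limma on mean log2 values gave 34, all higher, or 24, all higher, without experiment 1, or 1, higher, in cells paired on detected genes. The interaction with the construct gave 19 calls in DESeq2 and 0 in the others.

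The log2 fold change of FAM133A between RKIP and CTRL tumours was 1.64 in DESeq2, and lay between 1.34 and 1.85 with 1 experiment left out. The log2 ratio of total counts lay between 0.36 and 0.50 with 1 tumour left out (exact p = 0.0625, the smallest that 5 tumours allow) and was -0.031 with positive cells called after thinning. The difference in detected genes lay between 138 and 210.5 with 1 tumour left out, and was 139 with positive cells called after thinning and 122.9 with at least 3000 detected genes. The difference in share lay between 30.5 and 34.0 points with 1 experiment left out.

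Of the medians of the gene lists described, 252 moved by less than 1 SD over tumours and 12 by more. This SD is that of the medians of single tumours, and it is a wide measure. It was 0.38 for the G2 and M list and 0.62 for the MAGE list, beside medians of 0.13 and 0.42. A median can therefore move close to 0 and still be among the 252. Small differences that were never called changed sign under some settings, and the cause was not tested. In cells paired on total counts, BACH1 was 0.0014, HMGA1 0.055 and MKI67 0.112. In cells below the median total, PEBP1 was 0.112, ratpebp1 -0.209 and HMGA1 0.017, and in cells above it MKI67 was 0.052. With upper-quartile scaling HMGA1 was 0.0091 and MKI67 0.015. In CTRL tumours alone BACH1 was 0.192, HMGA1 0.109, HMGA2 0.206 and MKI67 0.035, and in RKIP tumours alone ratpebp1 was -0.012. With at least 5 FAM133A counts ratpebp1 was -0.122, and with at least 3000 detected genes ratpebp1 was -0.0073 and HMGA2 0.031. With positive cells called after thinning ratpebp1 was -0.298, BACH1 0.152 and HMGA1 0.066. Without the deepest 5% of cells BACH1 was 0.018, and without experiment 1 HMGA1 was 0.042 and MKI67 0.303. By mean log2 values PEBP1 was 0.194, BACH1 0.245, HMGA1 0.078 and MKI67 0.296. By the same values without experiment 1 they were 0.197, 0.067, 0.147 and 0.521, and in cells paired on detected genes BACH1 was 0.084 and HMGA1 0.114. With 1 tumour left out, BACH1 lay between -0.202 and 0.031, HMGA1 between -0.064 and 0.064, HMGA2 between -0.30 and 0.043, and MKI67 between -0.177 and 0.155.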
